A study of Mus musculus with 6 samples.

Results

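The genes described here are 10 chemokine receptors of the mouse, *Ccr1*, *Ccr2*, *Ccr6*, *Ccr7*, *Ccr9*, *Ccr10*, *Cxcr3*, *Cxcr4*, *Cxcr5* and *Cx3cr1*, measured in B1a cells of the peritoneal cavity (PC). Members were the probes that carry 1 of these names in the array files, which gave 12 of 55681 non-control probes. *Ccr9* and *Cx3cr1* each had a pair of probes. B1a cells are innate-like B cells that populate the PC and make natural antibody and IL-10. The authors sorted them as CD11b+CD5+ B cells from female mice of 7 weeks on a C57Bl/6 background, and total RNA was labelled with Cy3 for 1-colour Agilent arrays. The knockout arrays are 3 of *p40-/-IL-2Rα-/-* mice, a model of primary biliary cholangitis that lacks the IL-2 receptor alpha chain (CD25) in all cells. The control arrays are 3 of *p40-/-IL-2Rα+/-* mice, which keep 1 *Il2ra* allele. Mice of both groups lack p40, the subunit shared by IL-12 and IL-23, and no wild type array was part of the comparison. The series text gives at least 3 mice per sample. It does not say that arrays of a genotype came from separate pools, so that p-values measure the spread between these arrays alone.

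Chemokine receptors are membrane receptors that couple to inhibitory G proteins and steer leukocytes along gradients of chemokines, small secreted proteins. CCR7, CXCR5 and CXCR4 are known for the homing of B cells to lymph nodes, follicles and the bone marrow, and CXCL13, the ligand of CXCR5, is known for recruiting B1 cells to the PC. CCR6, CCR9 and CCR10 bind chemokines of mucosal surfaces and skin. CXCR3 binds interferon-induced chemokines, and CCR1, CCR2 and CX3CR1 are best known on monocytes and other inflammatory cells.

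The comparison asks which of these receptors differed in transcript level between knockout and control B1a cells. *Ccr6* and *Cxcr3* were higher on each knockout array than on any control array, 2.61-fold and 3.39-fold, and both passed the 2-fold threshold of the study, a change of 2-fold or more whose p before adjustment (here limma's) is 0.05 or less. *Ccr7* was 1.57-fold higher without overlap and did not pass it. Both probes of *Ccr9* lay lower on each knockout array than on any control array, by less than 2-fold, while the ranges of *Cxcr4* and *Cxcr5* overlapped. *Ccr1*, *Ccr2*, *Ccr10* and *Cx3cr1* were not measurable in either genotype as a group.

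Each receptor is read through 60-base probes whose positions the array files give in mm9. The first 30 bases are shown for the 5 probes on which the genotypes did not overlap, since the differences between genotypes were read from them.
*Ccr6* at chr17:8449933-8449962, plus strand: acacgagagcacaaagcaacattgccccaa
*Cxcr3* at chrX:98926950-98926979, minus strand: gccaggcgttgtcagcactgaatgtgccca
*Ccr7* at chr11:99005581-99005610, minus strand: cagccactgatacctttcctcatgttctgc
*Ccr9*, first probe, at chr9:123690334-123690363, plus strand: caggcaagaggcacttgctgcaggttctcc
*Ccr9*, second probe, at chr9:123680935-123680964, plus strand: ctcagatcctctttaagagtgttatatagt
The pair of *Ccr9* probes share a strand and start 9399 bases apart, so they read different parts of the locus. Which exons the probes lie in was not determined here.

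Levels are log2 of the processed signal relative to the 75th percentile of the same array, given for replicates 1, 2 and 3 in that order, and differences are knockout minus control. The signal at that percentile was 264, 252 and 272 in controls and 131, 66.5 and 162 in knockouts, so that knockout arrays were dimmer before scaling, and 39.7% to 45.9% of their spots were well above background against 47.2% to 50.6% of the control spots. The lowest level well above background was -4.48 to -3.98 on the control arrays and -3.67 to -2.40 on the knockout arrays. All 6 arrays were on 1 slide and were scanned on 1 date. *Il2ra*, the deleted gene, was 1.62, 1.13 and 1.35 in controls and -0.31, -0.59 and 0.86 in knockouts. It fell without overlap (difference -1.38, 2.60-fold, limma adjusted p = 0.122), and all 3 knockout arrays still read it well above background. Whether that probe lies in the deleted part is not known here, so it does not settle the labels. *Il12b*, the gene of p40, is deleted in either genotype. Its probe was still well above background on 3 control and 2 knockout arrays, with an unknown position relative to the deletion, and differed by -0.02. Of the genes of the sorting markers, *Cd5* differed by -0.23 and *Itgam*, which encodes CD11b, by 0.79, and neither passed the 2-fold threshold. All 7 B cell markers and all 8 B1a markers of fixed lists were well above background on all 6 arrays.

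Of the 12 probes, 7 were well above background on all 6 arrays, and these stand for 6 of the 10 genes (*Ccr6*, *Ccr7*, *Ccr9*, *Cxcr3*, *Cxcr4* and *Cxcr5*). *Ccr1* was well above background on no array. *Ccr2* was so on control 1 alone, with a processed signal of 46.9 there and between 2.49 and 7.47 on the other 5 arrays. *Ccr10* was so on knockout 2 alone, with 13.0 there and between 2.90 and 16.9 elsewhere. Of the pair of *Cx3cr1* probes, the first was above background on control 3 (146) and knockout 2 (16.7), and the second on control 3 alone (20.3). Both *Cx3cr1* probes were thus brightest on control 3, and no group of arrays measured any of these 4 genes, so they were not tested and have no fold.

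**Figure D1:**
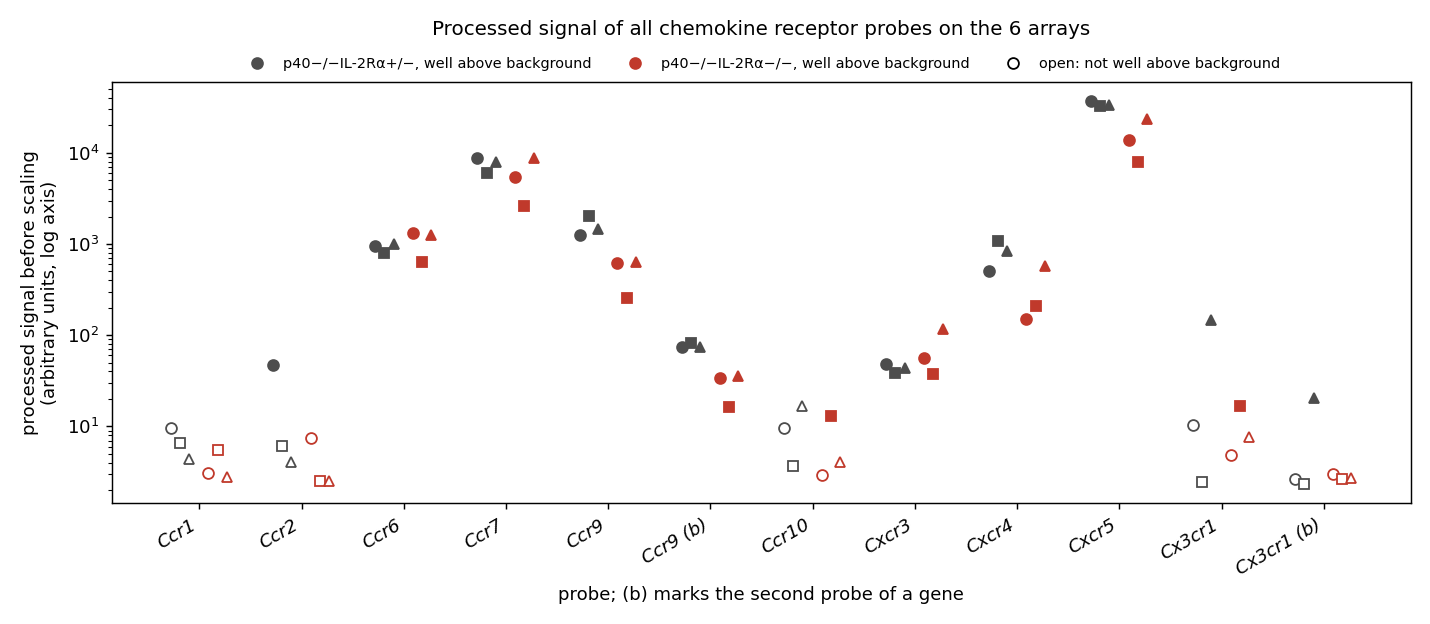
Processed signal of the 12 chemokine receptor probes before scaling (log axis, arbitrary units). Points are the 6 arrays, grey for *p40-/-IL-2Rα+/-* and red for *p40-/-IL-2Rα-/-*, with circle, square and triangle for replicates 1, 2 and 3, and open points were not well above background. The 5 probes of *Ccr1*, *Ccr2*, *Ccr10* and *Cx3cr1* are mostly open, and the other 7 are filled on all 6 arrays. Heights of different probes are not comparable.

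*Ccr6* encodes the receptor of CCL20 and is carried by B cells and by IL-17-producing T cells. Its level was 1.83, 1.66 and 1.88 in controls and 3.33, 3.24 and 2.96 in knockouts. The lowest knockout array stood more than 1 log2 unit above the highest control array. The means were 1.79 ± 0.12 and 3.18 ± 0.20 (SD, n = 3 each). The difference was 1.39 (SE 0.159, 95% interval 1.01 to 1.76, limma adjusted p = 0.0579 over all genes), which ranked 14 of 18246 genes by p. It stayed past the 2-fold threshold in 14 of 14 processing alternatives, with differences between 1.06 and 1.58. Some of these changed only the filter, the test or the variance model and so kept the difference of 1.39. Its adjusted p lay between 0.00224 and 0.124, under 0.05 in 8 of the 14. The processed signal before scaling was 940, 797 and 1001 against 1320, 630 and 1255, so that knockout 2, the dimmest array, was below all controls until scaled. The summed level (linear values in units of the 75th percentile signal) of 4 markers of B2 cells, which also carry CCR6, ranged from 63.6 to 79.1 on the control arrays and from 55.0 to 79.6 on the knockout arrays, an overlap.

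*Cxcr3* encodes the receptor of CXCL9, CXCL10 and CXCL11 and marks Th1 cells, effector CD8 T cells and some B cells. Its level was -2.45, -2.73 and -2.63 in controls and -1.22, -0.84 and -0.47 in knockouts. The genotypes did not overlap, and knockout 3 was the highest array. The means were -2.60 ± 0.14 and -0.84 ± 0.38 (SD, n = 3 each). The difference was 1.76 (SE 0.214, 95% interval 1.26 to 2.26, limma adjusted p = 0.0618), rank 19 by p. Before scaling, its processed signal was 48.4, 38.1 and 43.9 against 56.1, 37.3 and 117. Knockout 2 was thus below every control array before its lower 75th percentile was taken into account. All 3 control levels also lay under -2.40, the lowest value well above background on knockout 2. With another background correction (normexp) the difference was 1.10 with the same scaling and 0.76 with quantile normalization, and the latter ended the 2-fold call. Over 14 processing alternatives the limma adjusted p lay between 0.00164 and 0.136, under 0.05 in 5 of them. Without knockout 3 the difference was 1.57.

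Some T cell markers were higher on the knockout arrays, as *Cxcr3* was. Of 11 listed markers 7 were tested, 2 passed the 2-fold threshold as higher, where 2.25% of all genes did, and none passed the adjusted p. *Thy1*, a surface protein of T cells, was -2.13, -3.29 and -3.75 in controls and -1.57, -1.73 and 0.51 in knockouts (difference 2.13, limma adjusted p = 0.135). *Cd3d*, a chain of the T cell receptor complex, was -2.10, -3.30 and -2.78 against -2.54, -1.14 and -0.28 (difference 1.41, adjusted p = 0.188), and its genotypes overlapped. The summed level of the list was 5.09 to 5.90 on the control arrays and 6.26, 8.20 and 8.68 on knockout 1, 2 and 3, the same order of the arrays as for *Cxcr3*. *Cd8a* and *Trat1* were well above background on no array, and *Cd3g*, another chain of the complex, differed by -0.28. The summed level of the NK cell list was 0.595 to 0.756 against 0.733 to 1.14, with *Ncr1*, *Klrb1c*, *Klrd1* and *Klrk1* above background on no array. The part of these cells in the *Cxcr3* difference was not tested. In sorted bulk RNA, more cells of a type and more RNA per cell cannot be told apart.

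*Ccr7* encodes the receptor of CCL19 and CCL21 and guides lymphocytes into lymph nodes. Its level was 5.04, 4.57 and 4.86 in controls and 5.39, 5.28 and 5.76 in knockouts. Before scaling, its processed signal was 8681, 6008 and 7902 against 5492, 2586 and 8769, and knockout 1 and 2 were below every control array. After scaling, each knockout array stood above each control array, by the narrowest margin of the receptors that were higher without overlap. The difference was 0.65 (SE 0.194, 95% interval 0.20 to 1.11, limma adjusted p = 0.130). It was positive in all 14 processing alternatives, between 0.34 and 0.84, though some of them could not change the difference. It passed the 2-fold threshold in 0 of the 14.

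*Ccr9* encodes the receptor of CCL25 and is known for homing to the small intestine. Its first probe was 2.25, 3.01 and 2.43 in controls and 2.23, 1.93 and 1.96 in knockouts. Control 1 and knockout 1 lay close together, and control 2 stood above the rest. The difference was -0.52 (SE 0.224, 95% interval -1.05 to 0.01, limma adjusted p = 0.201). Without control 2 it was -0.30. The second probe was -1.84, -1.61 and -1.87 against -1.94, -2.02 and -2.17, again with every knockout array below every control array. Its difference was -0.27 (SE 0.153, limma adjusted p = 0.292 over all probes). With normexp and the 75th percentile it turned to 0.22, whereas the first probe was -0.73 there with a limma adjusted p of 0.0186 (0.0186 to 0.443 over the 14 alternatives).

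*Cxcr5* (probe at chr9:44320071-44320130, minus strand) and *Cxcr4* (chr1:130485079-130485138, minus strand) are the receptors of CXCL13 and CXCL12. *Cxcr5* was 7.13, 7.02 and 6.96 in controls and 6.74, 6.90 and 7.18 in knockouts, with overlap. The difference was -0.09 and its 95% interval, -0.47 to 0.28, held no 2-fold change in either direction. *Cxcr4* was 0.92, 2.11 and 1.64 against 0.21, 1.67 and 1.83. Control 1 and knockout 1 were the low arrays of their genotypes, and the difference of -0.32 had a 95% interval of -1.45 to 0.81, wide enough to hold a fall of more than 2-fold. The limma adjusted p was 0.707 for *Cxcr5* and 0.667 for *Cxcr4*.

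**Figure D2:**
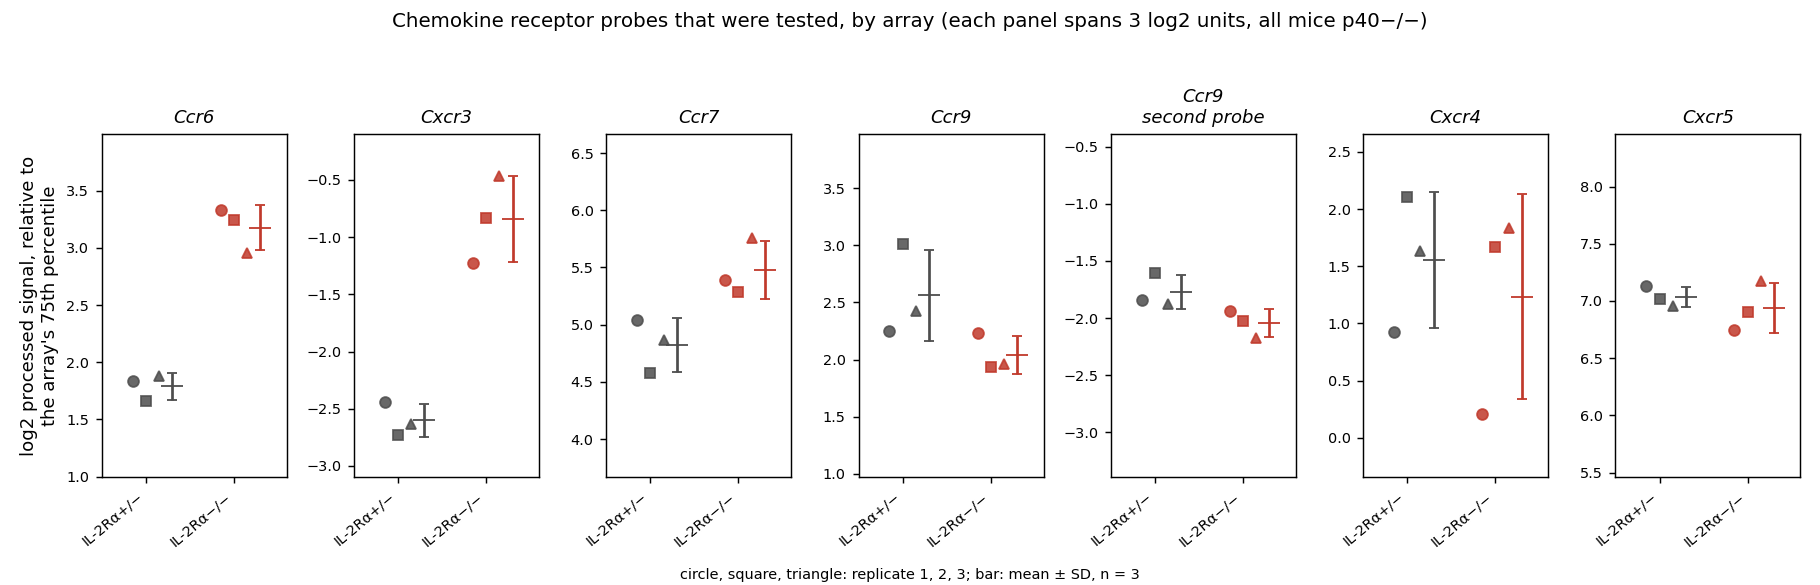
Level of the 7 tested probes on each array, as log2 of the processed signal relative to the array's 75th percentile. Each panel is 1 probe and spans the same number of log2 units, circle, square and triangle are replicates 1, 2 and 3, and bars are mean ± SD (n = 3). *Ccr6* (1.79 to 3.18), *Cxcr3* (-2.60 to -0.84) and *Ccr7* (4.83 to 5.48) have higher knockout means without overlap, both *Ccr9* probes have lower ones, and *Cxcr4* and *Cxcr5* overlap.

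Of the 6 tested genes, 2 passed the 2-fold threshold, both as higher, where 2.25% of all 18246 genes tested were called higher. None passed it as lower, against 1.26% of all genes. None had a limma adjusted p under 0.05, which 0.0384% of all genes had, and 3 of the 6 had an unadjusted p under 0.05, which 25.1% of all genes had. The methods' t-test on the same values gave the same counts, 0 and 3, the latter beside 21.7% of all genes. By probes, 2 of 7 passed the 2-fold threshold as higher, against 2.38% of 24744 probes. In 3 genes all knockout values lay above all control values, which was so for 14.7% of all genes, and in 1 gene all lay below, which was so for 21.6%. An exact two-sided permutation test of 3 arrays against 3 cannot go below p = 0.1, the value for each of these 4 genes. The median difference over all genes tested was -0.12.

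**Figure D3:**
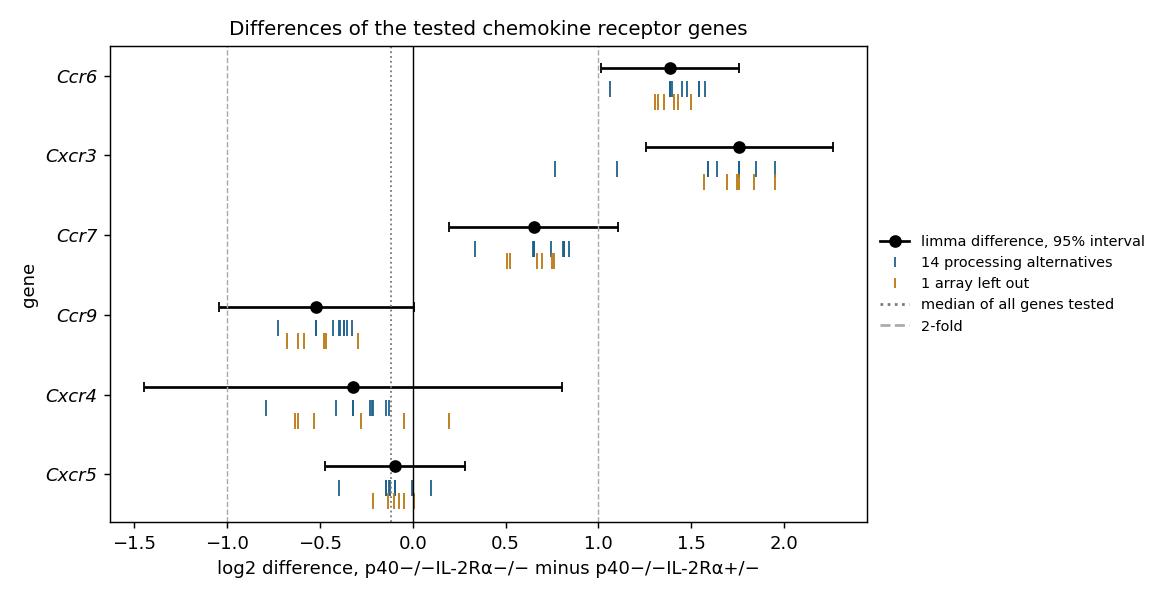
Log2 difference (knockout minus control) of the 6 tested receptor genes. Black points and bars are limma differences with 95% intervals, blue ticks are 14 processing alternatives and brown ticks are fits with 1 array left out. Dashed lines mark 2-fold and the dotted line the median of all genes, -0.12. *Ccr6* lies beyond 2-fold at every tick, *Cxcr3* at all but 1 (0.76), and the intervals of *Ccr9*, *Cxcr4* and *Cxcr5* cross 0.

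Promoters of 7 of the 10 genes could be matched by symbol to RefSeq (GRCm38.p6), each from 250 bases before to 50 after the start, 8 promoters in all because *Ccr6* has a pair of starts. *Ccr7*, *Ccr10* and *Cxcr5* had no entry. The promoters of the 2 genes past the threshold are shown, since STAT5 is the main transcription factor downstream of the IL-2 receptor and its consensus, TTCNNNGAA, which reads the same on both strands, was searched for. Capitals mark its matches.
*Ccr6*, first start, chr17:8235793-8236092, plus strand: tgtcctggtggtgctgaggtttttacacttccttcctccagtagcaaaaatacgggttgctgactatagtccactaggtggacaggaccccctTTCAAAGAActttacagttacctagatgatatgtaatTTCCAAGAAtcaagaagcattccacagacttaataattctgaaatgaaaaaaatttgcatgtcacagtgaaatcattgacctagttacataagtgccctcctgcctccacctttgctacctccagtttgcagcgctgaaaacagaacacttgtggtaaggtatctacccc
*Cxcr3*, chrX:101734098-101734397, minus strand: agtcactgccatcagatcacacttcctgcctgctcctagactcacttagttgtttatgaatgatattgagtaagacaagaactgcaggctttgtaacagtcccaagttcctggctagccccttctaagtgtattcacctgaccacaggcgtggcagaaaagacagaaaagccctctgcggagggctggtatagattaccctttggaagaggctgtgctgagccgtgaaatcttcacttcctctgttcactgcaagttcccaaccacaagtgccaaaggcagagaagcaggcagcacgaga
The first *Ccr6* promoter held 2 matches, which begin 157 and 120 bases before the start. The other 7 promoters, among them that of *Cxcr3* and the second *Ccr6* start, held none. Of 32851 promoters of the same length, 8.30% held a match. The T-box motif TCACACC, searched on both strands, was in 0 of the 8 promoters and in 3.98% of all. The E-box CANNTG was in 7 of 8 (72.3% of all) and the ETS core GGAA in 8 of 8 (96.0%). These are matches of letters in a short window and say nothing on binding in these cells.

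Among the ligands of these receptors, *Ccl5* and *Cx3cl1* were higher past the 2-fold threshold. Of 23 listed ligands, 20 were on the array and 12 were tested. Of these 12, 2 passed the threshold as higher and none as lower, where 2.25% and 1.26% of all genes did, and none passed the adjusted p. Without control 3 the count was 5 and without knockout 3 it was 4. The median difference of the tested ligands was 0.90 against -0.12 over all genes. *Ccl5* encodes a ligand of CCR1 and CCR3 made by T cells and macrophages. It was -0.43, -2.34 and -1.63 in controls and 1.27, 2.71 and 4.22 in knockouts, 18.4-fold higher (difference 4.20, SE 0.764, limma adjusted p = 0.0916). The difference was 3.46 without knockout 3, 4.93 without knockout 1 and 3.23 with normexp and the 75th percentile. *Cx3cl1*, the ligand of CX3CR1, was -1.09, -2.03 and -1.74 against 0.0045, -0.48 and 0.08 (difference 1.49, limma adjusted p = 0.0916), and its difference of 0.80 with normexp and quantile normalization ended the 2-fold call. Neither gene overlapped between genotypes, and *Ccl5* was highest on knockout 3, as were *Cxcr3* and *Thy1*.

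For the receptors past the threshold, *Ccl20*, the ligand of CCR6, was well above background on no array. Of the CXCR3 ligands, *Cxcl9* was so on 1 control array and *Cxcl10* on 1 control and 2 knockout arrays, and neither was tested. *Cxcl11* was 8.01, 8.16 and 8.10 in controls and 8.87, 9.55 and 8.66 in knockouts. After scaling it was higher without overlap, 1.91-fold by the probe used for the gene (difference 0.94, limma adjusted p = 0.117), and 0.53 on the mean of the gene's probes. Before scaling, that probe was lower on each knockout array than on any control array. Its scaled knockout levels ran in the reverse order of the 75th percentile signals of those arrays (131, 66.5 and 162). The side of 2-fold moved with the setting. The difference was 0.58 to 0.62 with quantile normalization or either normexp setting and 0.67 without knockout 2, but 1.03 and 1.13 when scaled on detected probes, 1.01 without knockout 1 and 1.12 without knockout 3. *Ccl19*, a ligand of CCR7, differed by 0.86 and *Ccl25*, the ligand of CCR9, by -0.72, and neither passed the threshold. *Cxcl13* was 1.08, 0.36 and -0.55 against -1.91, 1.69 and -1.28. It overlapped between genotypes and was highest on knockout 2. *Ccl2*, *Ccl3* and *Ccl4*, which attract monocytes and T cells, were also highest on knockout 2 (3.16, 3.87 and 3.62) and overlapped, and so was *Marco*, a macrophage receptor, at 4.31 there against 0.70 to 2.48 on the other 5 arrays. The summed level of 11 macrophage and monocyte markers was 43.5 on knockout 2, 16.4 to 33.1 on the control arrays and 15.3 and 16.0 on knockout 1 and 3. Its part in these values was not tested.

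Of 15 other chemokine receptors on the array, 6 were tested and 7 were well above background on no array. *Ccr1l1*, a paralogue next to *Ccr1*, was -2.71, -2.37 and -2.25 in controls and -3.34, -3.30 and -3.88 in knockouts. Its probe was well above background on no knockout array, so it was tested only because of the control arrays, and the values leave a bound of at least 1.56-fold lower, short of 2-fold (adjusted p = 0.0960 in limma). The fitted difference of -1.07 alone would pass the 2-fold threshold and is not read as a call. It turned to 0.18 with normexp and the 75th percentile. By fitted values it was the 1 gene of the list past the threshold, where 1.26% of all genes were called lower, and the count was 0 without control 3 or without knockout 3 and 2 without knockout 1. *Ccr1l1* belongs to a receptor cluster of chromosome 9 that also holds *Ccr9*, *Cxcr6*, *Xcr1*, *Ccr1*, *Ccr3* and *Ccr2*. Of these, *Xcr1*, *Ccr1*, *Ccr3* and *Ccr2* were not tested, and *Cxcr6* differed by -0.29 and *Ccr9* by -0.52. Of the scavenging and atypical receptors, *Ccrl2* differed by 0.55, *Ccbp2* by -0.07 and *Cxcr7* by 0.15, and none passed the threshold.

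Genes that carry the signal of chemokine receptors were also counted. Of 31 listed genes (G protein subunits, arrestins, receptor kinases, PI3 kinases, small GTPases and their activators), 30 were tested and 0 passed the 2-fold threshold, beside 2.25% of all genes as higher and 1.26% as lower. Their median difference was -0.16 against -0.12 over all genes. The difference farthest from 0 was that of *Ptk2*, which encodes focal adhesion kinase, at -0.67, -0.25 and -0.37 in controls and -1.67, -1.72 and -0.76 in knockouts (difference -0.96, limma adjusted p = 0.129). *Gnai2*, the main inhibitory G protein subunit of lymphocytes, was 6.15, 5.97 and 6.26 against 6.06, 5.92 and 6.34, and *Dock2*, an activator of RAC in migrating lymphocytes, differed by -0.26.

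**Figure D4:**
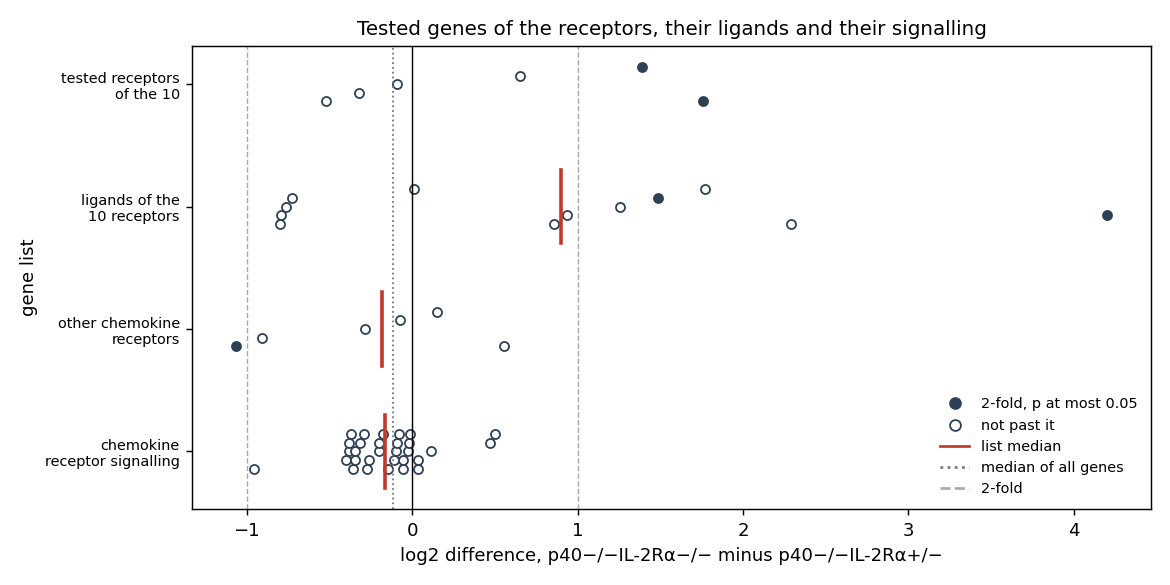
Log2 difference (knockout minus control) of each tested gene among the 10 receptors (6 genes), their ligands (12), the other chemokine receptors (6) and chemokine receptor signalling (30). Filled points passed the 2-fold threshold by fitted value with an unadjusted p of at most 0.05 (for *Ccr1l1* the bound stays under 2-fold), red lines are the medians of the 3 lists, dashed lines mark 2-fold and the dotted line the median of all genes. *Ccl5* lies farthest to the right at 4.20, and all signalling genes lie within 2-fold.

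Of the markers of other cells the gate could hold, *Lyz2*, lysozyme of myeloid cells, fell past the 2-fold threshold (difference -1.08, limma adjusted p = 0.164), though its genotypes overlapped. *Igj*, the joining chain made by plasma cells, fell past it without overlap (-1.92, limma adjusted p = 0.135). *Lyz2* was the 1 gene called of 9 tested macrophage and monocyte markers, and *Igj* the 1 of 5 tested plasma cell markers, where 1.26% of all genes were called lower. Of the 9 macrophage and monocyte markers, 7 were lower and 2 higher. Beside *Lyz2*, *Marco* differed by 0.92, *Msr1* by 0.18, *Cd68* by -0.62 and *Timd4* by -0.50. *Csf1r* differed by -0.31, *Fcgr1* by -0.20, *Emr1* by -0.16 and *Cd14* by -0.08. The summed level of the plasma cell list was 68.6 to 75.6 on the control arrays and 46.6 to 59.5 on the knockout arrays. In the fit by genes no marker of dendritic cells, granulocytes, mast cells or B2 cells passed the threshold, with *Mcpt4* just short of it. Of the 5 dendritic cell markers 1 was tested (*Siglech*, difference 0.50), and the list's summed level was 61.3 to 66.7 against 72.1 to 127, nearly all of it from the *Siglech* probe. *Cd209a* was well above background on 2 control arrays and no knockout array. The sum of the granulocyte and mast cell list was 108 to 118 against 115 to 222, nearly all of it from the *Csf3r* probe (difference 0.46). Before scaling, the *Siglech* and *Csf3r* probes were both lower on each knockout array than on any control array. *S100a8* and *S100a9* were not tested. *Mcpt4* and *Cpa3*, mast cell proteases, were tested only because of the control arrays, being well above background on 1 and 2 of 3 knockout arrays. *Mcpt4* was 0.68, -0.44 and -2.88 in controls and -3.43, -3.24 and -1.99 in knockouts, and the genotypes overlapped. Its fitted difference of -2.01 met the 2-fold threshold in the limma fit by probes (unadjusted p = 0.0492) but not in that by genes (adjusted p = 0.200), and is not read as a call. The part of these cells in the receptor values was not tested.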

How the data were processed

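For each array the authors deposited the spot intensity from Agilent Feature Extraction 10.7.1.1, with background subtracted and detrended within the array and no scaling between arrays, and raw mean and background intensities. They also deposited log2 values per probe, whose sorted values are identical on the 6 arrays. Here each array was scaled by its 75th percentile over 59305 non-control spots, on the log2 scale of the processed intensity. Outlier spots were dropped (none of the receptor probes had one), and replicate spots were combined by their mean.

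Testing required 1 genotype with all 3 arrays well above background, and measurements on 2 or more arrays per genotype. The brightest such probe stood for its gene. The comparison used limma 3.58.1 (lmFit, eBayes; R 4.3.3), with no covariate and Benjamini-Hochberg adjustment. The steps were tested on simulated data. The 10 receptors, gene lists and thresholds were chosen with earlier results of these data known. Beyond every receptor and its probes, named genes were list genes past a threshold, ligands of such receptors, deleted genes and sorting markers, and some list genes were picked after their values were seen. List genes without a name match on the array (*Ccl21a*, *Ccl21b*, *Ccl21c*, *Ighd*, *Ly6c2*, *Ly6g* and *Siglecf*) have no value. Summed levels add linear values relative to the 75th percentile over all listed genes on the array. Gene symbols are those of the array files. Some genes that the lists cover are not reported here. RefSeq (GRCm38.p6) was used for names and promoters. The number of arrays, 3 per genotype, limits the precision.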

Additional observations from a re-analysis of the deposited data

How the results depend on the processing

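Across 14 processing alternatives and 6 fits with 1 array left out, *Ccr6*, *Cxcr3* and *Ccr7* stayed higher and *Ccr9* lower in each. Alternatives that changed only the filter, the test or the variance model kept the same differences and could not change a direction. The receptor genes past the 2-fold threshold stayed at 2, except with normexp and quantile normalization (1 gene, 1 probe). The count with an adjusted p under 0.05 was 0. It was 2 genes (2 probes) with array weights, robust estimation with a trend, the filter on all 6 arrays or scaling on the 75th percentile of detected probes, 3 genes (3 probes) with normexp and the 75th percentile, and 1 gene with quantile normalization, the deposited log2 values or normexp with quantile normalization (1 probe there). Scaling on the median of detected probes gave 1 probe. Leaving out 1 array gave 0 to 2 genes and 0 to 2 probes, with 2 without knockout 3. The count over all genes moved as well, from 7 to 23 (quantile; 75th percentile of detected probes), 6480 (normexp, 75th percentile), 14 (normexp, quantile), 22 (deposited values), 26 (all 6 arrays), 755 (trend), 1443 (array weights), 11 (mean of probes), 2 (no filter) and 2 to 92 with 1 array left out. Past the 2-fold threshold it moved from 641 to 192 and 161 (normexp), 10640 (no filter) and 1110 (without knockout 3). The cause was not tested.

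The 2 ligands past the 2-fold threshold became 4 with normexp and the 75th percentile, 1 with normexp and quantile normalization, 3 and 4 when scaled on the median and 75th percentile of detected probes, 6 without the filter and 2 to 5 with 1 array left out. Other chemokine receptors (1 by fitted values) were 0 with either normexp setting, either scaling on detected probes or the filter on all 6 arrays, 5 without the filter and 0 to 2 with 1 array left out. Signalling genes (0) were 1 with quantile normalization, the deposited values, array weights or no filter, and 0 to 1 with 1 array left out. *Cxcr5* turned to 0.10 when scaled on the 75th percentile of detected probes. With normexp and the 75th percentile, *Ccr1l1* turned to 0.18 and the second *Ccr9* probe to 0.22. With 1 array left out, *Cxcr4* ranged from -0.64 to 0.19 and *Cxcr5* from -0.21 to 0.0040, above 0 without knockout 1 alone.

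Deviations of same-numbered arrays correlated weakly (0.187, 0.057 and 0.094), against -0.192 to 0.068 for the other pairs. Each control array correlated best with the knockout array of its number, while knockout 2 correlated best with control 3 (0.068). These values do not settle whether the replicate numbers pair the arrays, so fits with and without a replicate block are given. With the replicate block the adjusted p of *Ccr6* and *Cxcr3* was 0.120, with the same differences and 2 receptor genes past the 2-fold threshold, and the counts over all genes were 645 and 4 against 641 and 7. The methods' t-test called 437 genes at the study's thresholds and 2 after Benjamini-Hochberg adjustment, against 641 and 7 with limma, and both *Ccr6* and *Cxcr3* were among the 437. Scaling moved the median difference of all genes from -0.12 to 0.07 on the 75th percentile of detected probes. Relative to the median of its own setting, *Ccr6* lay between 0.99 and 1.62 and *Cxcr3* between 0.82 and 1.88 over the 14 alternatives. Signal over background limits *Cxcr3* and the 4 receptors that could not be tested.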
